A study of Mus musculus with 85 samples.

Results

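The glutathione S-transferases (GST), UDP-glucuronosyltransferases (UGT) and sulfotransferases (SULT) are the main conjugating enzymes of phase II drug metabolism. GST enzymes couple glutathione to electrophiles, UGT enzymes of the endoplasmic reticulum couple glucuronic acid from UDP-glucuronate to bilirubin, steroids and drugs, and SULT enzymes of the cytosol transfer sulfate from PAPS to phenols, steroids and bile acids. Hepatocytes carry out most of this work in the liver, and several of the genes are textbook targets of NRF2, of the aryl hydrocarbon receptor or of the nuclear receptors CAR and PXR. Here 48 of 61 gene symbols of these families were described, among 23608 genes in the expression table. They were chosen by measured values. A gene was kept when its mean TPM (a transcript level scaled to length and library) reached 1 in at least one group of parental libraries. Levels by group are therefore descriptions without a test. They comprise 20 GST genes, 18 UGT genes and 10 SULT genes. The highest group mean of the lowest members was 1.32 TPM for Gstt4, 2.45 TPM for Ugt2b37 and 2.56 TPM for Sult3a2, and the genes just below the limit were Sult2b1 at 0.791 TPM, Gsto2 at 0.787 TPM and Sult2a2 at 0.78 TPM.

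Liver cells and cultured macrophages were sequenced for RNA in 85 libraries. The cells came from male mice of the inbred strains C57BL/6J, BALB/cJ and A/J and of CB6F1/J, the first-generation hybrid of BALB/cJ and C57BL/6J. Kupffer cells, which are the liver's own macrophages, came from 4 kinds of mice. The first were injected with lipopolysaccharide (LPS, 0.1 mg/kg, 2 h; BALB/cJ, C57BL/6J and CB6F1/J). The second were fed the AMLN diet for 30 weeks (a steatohepatitis diet, all 3 inbred strains). The third were immunodeficient NSG hosts that had received BALB/cJ, C57BL/6J or CB6F1/J marrow after busulfan. The last were untreated mice aged 8–12 weeks of the 3 inbred strains and the hybrid. Mice of the LPS arm and their uninjected controls were fasted. The same untreated Kupffer libraries of each strain are set against every arm here. Whether they are the fasted controls is not said, so fasting may differ between them and the libraries they are set against. Hepatocytes, liver sinusoidal endothelial cells (LSECs) and stellate cells came from untreated mice of the 3 inbred strains, and bone marrow-derived macrophages (BMDMs), grown from marrow in culture, received the lipid A analog KLA (100 ng/ml, 2 h) or PBS in all 4 genotypes. In the NSG arm, grafted macrophages of BALB/cJ and C57BL/6J marrow were sorted by the donor's MHC haplotype. No such gate is given for hybrid marrow. The other liver cells stayed the host's. Livers of NSG hosts were taken months after transplant, and the grafted cells came from donor progenitors. Host, age, cell origin and conditioning thus cannot be told apart when these cells are set against untreated ones. Mice on the AMLN diet were older than the untreated mice they are set against, so diet, age and time of harvest cannot be told apart there. The study also names lab-maintained C57BL/6 background mice in its steatohepatitis experiments, where other mice were bought. Whether they gave the C57BL/6J diet libraries is not said, so colony may differ there too. Each group held 2 to 5 libraries.

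Depth, in units of 1e6 counted reads, ranged from 5.25 to 42.78 over the 69 parental libraries. Each liver cell type held the highest sum of its own markers, with Kupffer marker sums of 18080 to 19630 TPM in untreated Kupffer cells against 21.7 to 53.1 TPM in hepatocytes. A/J stellate libraries also held 2605 to 7712 TPM of Kupffer markers, against 284.8 to 945.4 TPM in BALB/cJ and 1648 to 2168 TPM in C57BL/6J stellate cells. LSEC markers summed to 2117 to 5819 TPM in stellate libraries, against 10770 to 14010 TPM in LSECs, and the part of these other cells in stellate levels was not tested. Hepatocyte RNA was present in all sorted cells: Alb, which encodes albumin, stood at 77.5 to 366 TPM in untreated Kupffer cells, at 556 to 5515 TPM in LSECs and at 183 to 1669 TPM in stellate cells. The median of 11 hepatocyte markers, as a percent of their hepatocyte level, was 0.14 to 0.399 in untreated Kupffer cells, 0.812 to 9.31 in LSECs and 0.265 to 1.67 in stellate cells. Kupffer cells of hybrid marrow in NSG hosts held 70.0 to 76.9 TPM of Xist, which female cells make, although the mice are given as male. How much of a member's level in the sorted cells came with hepatocyte RNA was not tested, and in bulk samples fewer cells of a type cannot be told apart from less RNA per cell.

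Several members share sequence, which limits what a read count for one of them can say. The 8 Ugt1a members on chromosome 1 differ in their first exon and share 3 exons at chr1:88215044-88215175, chr1:88215795-88215882 and chr1:88216138-88216357 (mm10, plus strand, GENCODE vM21), so their last 737 coding bases are identical. The first exons are not wholly separate, since GENCODE lists a Ugt1a7c transcript that carries the Ugt1a6a exon, and 94.2% of the 50-base words of Ugt1a6a also occurred in Ugt1a7c. The first exons of Ugt1a1 (chr1:88211959-88212871), Ugt1a7c (chr1:88095064-88095978) and Ugt1a9 (chr1:88070800-88071678) separate the genes that led in different cell types. The first 60 coding bases of these 3 genes and of the shared stretch, from GENCODE vM21 (GRCm38), show the part before the shared exons in lower case and the part common to all 8 in capitals:
Ugt1a1: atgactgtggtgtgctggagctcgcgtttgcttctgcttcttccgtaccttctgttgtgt
Ugt1a7c: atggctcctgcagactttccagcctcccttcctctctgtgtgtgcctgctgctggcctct
Ugt1a9: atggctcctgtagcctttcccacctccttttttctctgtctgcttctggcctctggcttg
Shared by all 8: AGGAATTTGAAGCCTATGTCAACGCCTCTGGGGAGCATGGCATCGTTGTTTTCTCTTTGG

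Gstp1 and Gstp2, neighbours on chromosome 19, were 98.1% identical over 630 coding bases, with 12 differences. Of the 50-base words in Gstp1 transcripts 51% also occurred in another member, and 44.3% of those in Gstp2 did. The same share was 41.7% for Ugt2b5, 37.4% for Ugt2b38, 18.3% for Ugt2b37, 15.8% for Gstm3 and 9.4% for Gstm1, and 53.9% to 96.0% for the Ugt1a genes, so levels of these genes are less certain than those of the rest. Over the first 60 coding bases 6 differences, in capitals, separate the Gstp pair:
Gstp1: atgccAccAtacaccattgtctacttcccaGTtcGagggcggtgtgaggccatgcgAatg
Gstp2: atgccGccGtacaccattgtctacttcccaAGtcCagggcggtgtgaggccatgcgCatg

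Hepatocytes held the highest group mean for 42 of the 48 members. Summed over the GST members, untreated hepatocytes held 3445 TPM in A/J, 3898 TPM in BALB/cJ and 3876 TPM in C57BL/6J. Stellate cells held 576 to 940 TPM, LSECs 336 to 407 TPM, BMDMs 186 to 299 TPM and Kupffer cells 164 to 201 TPM. UGT genes, with the Ugt1a locus counted once as Ugt1a1, summed to 2007 to 2245 TPM in hepatocytes over the strains, against 13 to 17 TPM in Kupffer cells and 40 to 82 TPM in BMDMs. SULT genes summed to 627 to 825 TPM in hepatocytes, against 77 to 134 TPM in Kupffer cells and 1 to 5 TPM in BMDMs. The classes thus differed in how far they were confined to hepatocytes, with UGT levels in Kupffer cells and SULT levels in BMDMs at the low end.

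**Figure D1:**
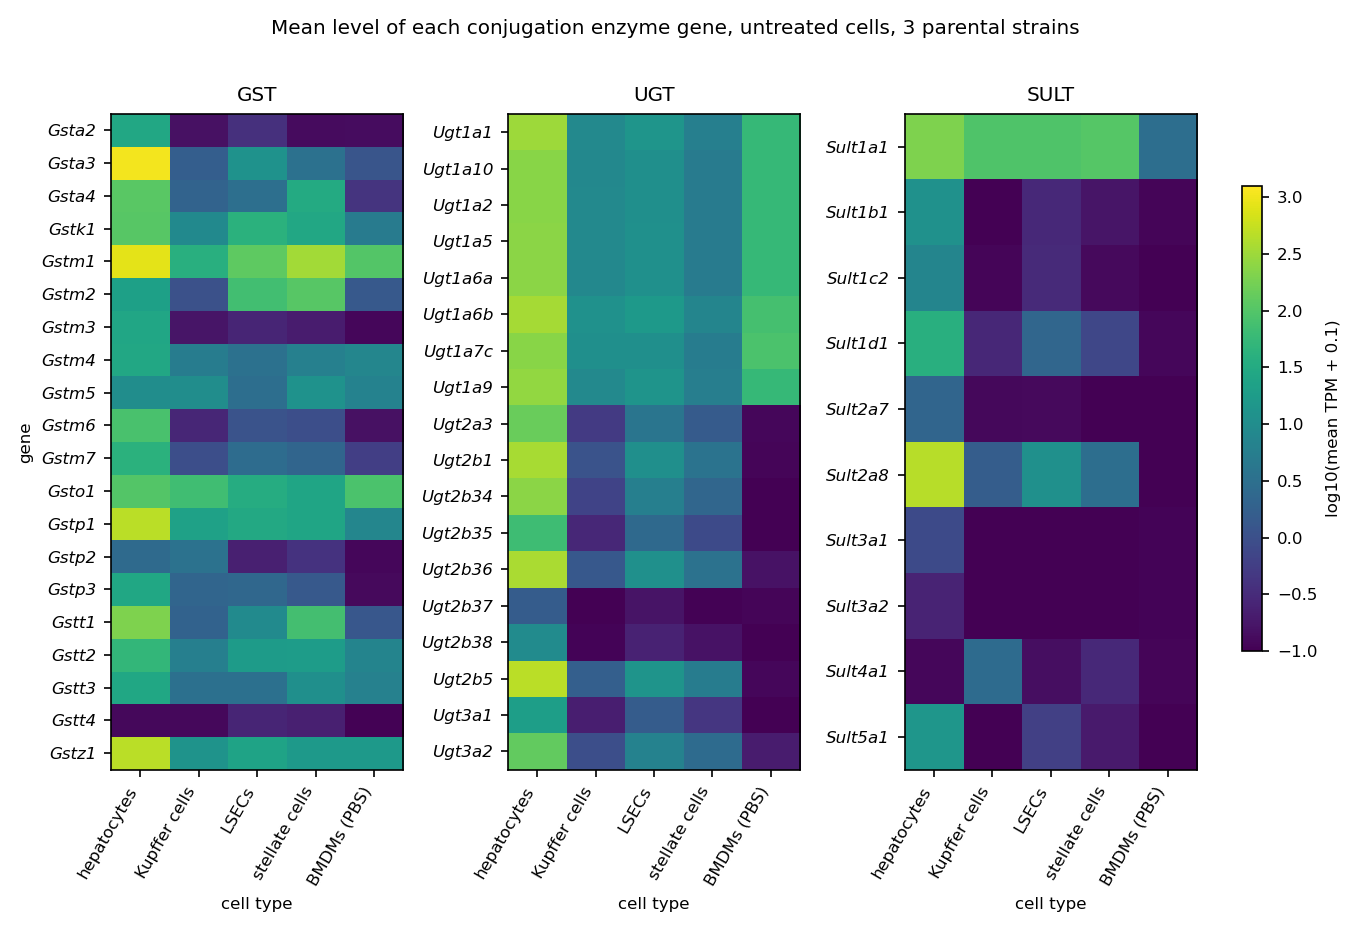
Mean level of each member (rows) in hepatocytes, Kupffer cells, LSECs, stellate cells and PBS-treated BMDMs (columns), as log10(TPM + 0.1) over the untreated or PBS-treated libraries of 3 strains, in 3 panels for GST, UGT and SULT genes. The UGT panel is bright in the hepatocyte column with the Ugt1a rows also filled in BMDMs, Gstm2 is brightest in stellate cells, and Gsto1 is bright in all 5 columns.

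Among GST genes, Gsta3 and Gstm1 led in hepatocytes. Gsta3, the alpha-class enzyme that detoxifies aflatoxin epoxide in mice, averaged 1078 ± 97.5 TPM in hepatocytes (SD, n = 7), against 1.59 ± 0.69 TPM in Kupffer cells (n = 6) and 12.1 ± 12.3 TPM in LSECs (n = 12). Gstm1, a mu-class enzyme, averaged 859 ± 248 TPM in hepatocytes and 339 ± 161 TPM in stellate cells (n = 11), with 122 TPM in LSECs, 99.9 TPM in BMDMs (n = 6) and 39.1 TPM in Kupffer cells. Gstp1, the pi-class enzyme, averaged 475 ± 319 TPM in hepatocytes, with a range of 110 to 892 TPM, and Gstz1, the maleylacetoacetate isomerase of tyrosine breakdown, 472 ± 37.9 TPM. The theta-class Gstt1 averaged 204 TPM in hepatocytes and 73.7 TPM in stellate cells. Gsta4, which acts on 4-hydroxynonenal, had 113 and 32.4 TPM in the same cells, and the mitochondrial and peroxisomal Gstk1 had 110 and 28.6 TPM. Gsta2, Gstm3, Gstm4, Gstm6, Gstm7, Gstp3, Gstt2 and Gstt3 averaged between 26.2 and 82.7 TPM in hepatocytes.

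Other GST genes reached comparable or higher levels in other cells. Gstm2 averaged 106 ± 21.9 TPM in stellate cells and 73.0 ± 12.9 TPM in LSECs, against 21.0 ± 4.75 TPM in hepatocytes and 0.92 ± 0.21 TPM in Kupffer cells. Gsto1, the omega-class thioltransferase and dehydroascorbate reductase, was high in all 5 cell types. It averaged 99.8 ± 17 TPM in hepatocytes, 85.6 ± 21.3 TPM in BMDMs, 68.4 ± 19.1 TPM in Kupffer cells, 34.4 ± 8.47 TPM in LSECs and 25.6 ± 9.47 TPM in stellate cells. The spreads of hepatocytes, BMDMs and Kupffer cells overlapped for Gsto1. Gstm5 averaged 12.2 ± 4.58 TPM in stellate cells, 10.2 ± 7.00 TPM in Kupffer cells, 10.2 ± 3.07 TPM in hepatocytes and 6.44 ± 3.40 TPM in BMDMs, neighbours that did not differ beyond their spread.

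Of the UGT genes, the Ugt2b cluster on chromosome 5 filled hepatocytes: Ugt2b5 averaged 480 ± 120 TPM, Ugt2b36 381 ± 49.1 TPM, Ugt2b1 370 ± 128 TPM, Ugt2b34 248 ± 53.1 TPM, Ugt2a3 147 ± 23.2 TPM and Ugt2b35 66.0 ± 20.0 TPM. The Ugt3a pair, whose human counterparts use other sugars than glucuronate, averaged 131 ± 45.4 TPM (Ugt3a2) and 20.0 ± 10.4 TPM (Ugt3a1). In Kupffer cells none of these averaged above 1.62 TPM, and Ugt2b38 (9.53 TPM in hepatocytes) and Ugt2b37 (1.45 TPM) were lower still. Sult2a8, a hepatic bile acid sulfotransferase, led the SULT genes with 448 ± 112 TPM in hepatocytes and 1.53 ± 0.80 TPM in Kupffer cells. Sult1a1, the phenol sulfotransferase, averaged 201.5 ± 61.5 TPM in hepatocytes and was also abundant in the 3 other liver cell types. It averaged 103 ± 19.7 TPM in stellate cells, 94.0 ± 39.5 TPM in LSECs and 93.7 ± 33.0 TPM in Kupffer cells, but 2.97 ± 1.99 TPM in BMDMs. Sult1d1 (38.4 TPM), Sult5a1 (14.1 TPM), Sult1b1 (11.8 TPM), Sult1c2 (7.28 TPM) and Sult2a7 (2.05 TPM) were hepatocyte genes at lower levels.

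In the fit over the 4 liver cell types, 41 members passed the limit of 8 TPM in some group. Levels chose the members and most of them passed through hepatocytes, so the counts here are a description from which nothing is drawn. A difference was called at a log2 difference beyond 1 and an adjusted p under 0.05, the threshold used throughout. All 41 were called higher in hepatocytes than in Kupffer cells (60.5% of all genes tested were called in either direction), but 26 of them passed the limit through hepatocytes only, a group in which they could only be higher. Against LSECs 40 were called higher (61.5% called), 18 of them by that route. Against stellate cells 40 were called higher and 1 lower (62.2% called), with 26 by that route. In all 3 comparisons together 40 were called higher, where 20.4% of all genes tested were. Gstm2 was the one exception, with a log2 difference of hepatocytes minus stellate cells of -1.07 ± 0.11 (SE, adjusted p = 5.47e-10) and of hepatocytes minus LSECs of -0.37 ± 0.11 (adjusted p = 0.00236, short of 1). These fitted values are relative to the majority of genes. On the TPM scale the median log2 ratio of all genes was -1.1 against Kupffer cells, -1.43 against LSECs and -1.48 against stellate cells, so the fit placed hepatocyte values higher by 1.03, 1.37 and 1.24. Of the members only Gstm5 changed direction between the scales, with hepatocytes minus stellate cells at 1.10 fitted and -0.18 as a TPM ratio. With library totals in place of TMM scaling, Gstm5 stood at 0.45 against Kupffer cells and 0.23 against stellate cells and Gsto1 at 0.74 against Kupffer cells, none of them called, and 38 members were called higher in all 3 comparisons.

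Genes that supply or share this chemistry were counted from lists, to be read beside the 60.5%, 61.5% and 62.2% of all genes called against Kupffer cells, LSECs and stellate cells. Of 12 other conjugation enzymes tested, 11 were higher in hepatocytes than in Kupffer cells and all 12 were higher than in LSECs and in stellate cells. Of 10 genes for the UGT and SULT cofactors, 5 were higher and 3 lower in hepatocytes than in Kupffer cells (5 and 2 against LSECs, 4 and 2 against stellate cells). For glutathione supply and use the counts were 11 higher and 3 lower of 16 against Kupffer cells, 12 and 1 of 15 against LSECs and 13 and 3 of 16 against stellate cells. NRF2 targets gave 10 and 7 of 23, 17 and 2 of 23 and 18 and 4 of 24, and transcriptional regulators 10 and 2 of 19, 11 and 4 of 20 and 8 and 2 of 19, in the same order.

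The Ugt1a genes had similar counts because most of their reads fell in the shared exons. Reads that a Ugt1a gene held beyond the gene with the fewest in the same library fell outside the shared exons, and they separated the cell types. In hepatocytes, Ugt1a1, the bilirubin-conjugating enzyme, held 56.8% of these reads, Ugt1a9 22.4%, Ugt1a6b 9.0%, Ugt1a6a 8.0% and Ugt1a7c 0.1%. In Kupffer cells Ugt1a7c held 80.4%, Ugt1a1 8.5% and Ugt1a9 4.5%, and in BMDMs Ugt1a7c held 93.2%. Ugt1a7c had 34 to 131 such reads in each of the 6 untreated Kupffer libraries and 1848.5 to 3149 in each of the 6 PBS-treated BMDM libraries, against 0 to 23 in the 7 hepatocyte libraries. LSECs resembled hepatocytes, with 45.0% for Ugt1a1, 34.1% for Ugt1a9 and 0.7% for Ugt1a7c, while stellate cells held 36%, 29.9% and 18.8%. Hepatocyte libraries held almost none of the reads by which Ugt1a7c led in macrophages. Since Ugt1a6a held 8.0% of these reads there and Ugt1a7c 0.1%, reads of the Ugt1a6a exon were not also counted for Ugt1a7c to any such extent.

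**Figure D2:**
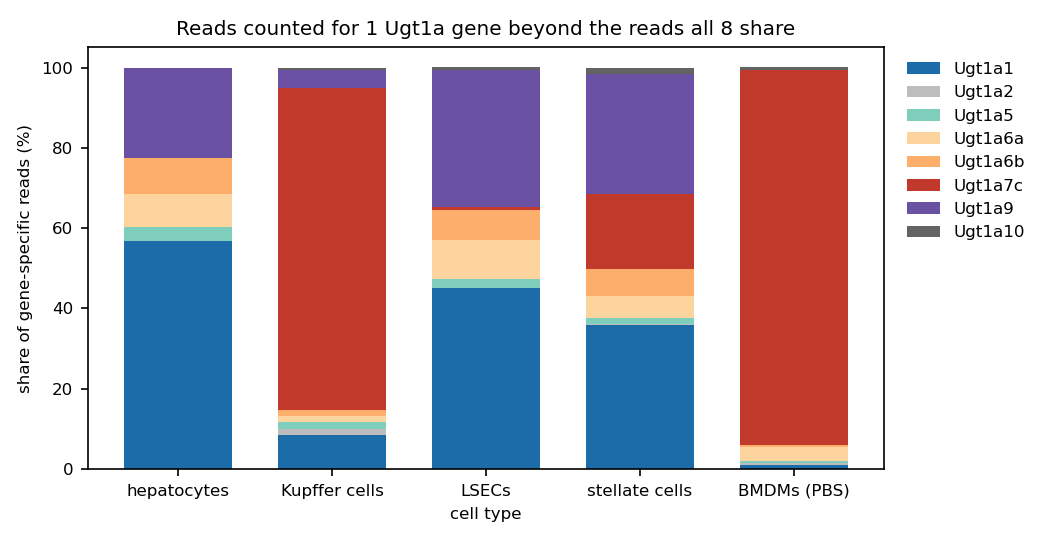
Share, in percent, of the reads counted for a single Ugt1a gene beyond those of the lowest Ugt1a gene in the same library, summed over libraries of each cell type (bars, colours mark genes). Ugt1a7c takes 80.4% of the Kupffer cell bar and 93.2% of the BMDM bar, against 0.1% of the hepatocyte bar, where Ugt1a1 takes 56.8%.

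Promoters of the members, from 250 bases before to 50 after the start (RefSeq, GRCm38.p6), were matched for 42 of 48 members and searched on both strands. The core of the antioxidant response element bound by NRF2, TGACNNNGC, occurred in 3 of them (7.1%, against 14% of 27025 promoters). The dioxin response core GCGTG of the aryl hydrocarbon receptor occurred in 8 (19% against 35.2%). CAAAGTCCA, a binding sequence of HNF4A, occurred in 1 (2.4% against 0.6%) and TATAAA in 8 (19% against 15.7%). The Gstm5 promoter is shown because Gstm5 differed between strains in several cell types below. It lies at chr3:107895604-107895903 on the plus strand, and the capitals mark its TGACNNNGC match:
Gstm5: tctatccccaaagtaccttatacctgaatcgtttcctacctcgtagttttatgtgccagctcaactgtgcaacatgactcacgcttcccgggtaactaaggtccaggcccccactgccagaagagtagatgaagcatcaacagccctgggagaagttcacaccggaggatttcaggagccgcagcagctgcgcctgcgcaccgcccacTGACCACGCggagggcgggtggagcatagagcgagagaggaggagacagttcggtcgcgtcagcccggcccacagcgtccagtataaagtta

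Strain differences were then tested within each cell type. A gene had to average 8 TPM in one of the compared groups, so a member that reached this in one group only could be called only in that group's favour. That held for 49 of the 63 calls of members between strains, treatments and hosts, and their directions were set by the limit. Dropping it lost 0 of the calls. Only the genes over which p is adjusted change then, not the fitted differences, so this is no test of those directions. In hepatocytes, Gstm3, Sult1b1 and the Ugt3a pair were lowest in BALB/cJ, and Sult5a1 was highest in C57BL/6J. Gstm3, a mu-class gene, had 33.2 and 34.8 TPM in A/J, 6.51 and 3.08 TPM in BALB/cJ and 42, 42.8 and 21.1 TPM in C57BL/6J hepatocytes, and BALB/cJ overlapped neither other strain. The log2 difference was 2.90 ± 0.43 (A/J minus BALB/cJ, adjusted p = 0.00454) and -2.98 ± 0.42 (BALB/cJ minus C57BL/6J, adjusted p = 0.00157). Sult5a1 had 5.67 and 6.61 TPM in A/J, 3.59 and 4.75 TPM in BALB/cJ and 18.9, 23.9 and 35.5 TPM in C57BL/6J hepatocytes, and every C57BL/6J library lay above all others. A/J minus C57BL/6J was -2.09 ± 0.28 (adjusted p = 0.00124). BALB/cJ minus C57BL/6J was -2.77 ± 0.29 (adjusted p = 0.000154). Sult1b1, which sulfates thyroid hormones and small phenols, had 16 and 16.3 TPM in A/J, 6.48 and 4.35 TPM in BALB/cJ and 10.1, 12.7 and 16.9 TPM in C57BL/6J. Its log2 differences were 1.67 ± 0.25 (A/J minus BALB/cJ, adjusted p = 0.00269) and -1.39 ± 0.23 (BALB/cJ minus C57BL/6J, adjusted p = 0.00242).

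The neighbouring Ugt3a1 and Ugt3a2 on chromosome 15 were both lowest in BALB/cJ. They and Ugt1a9 were the members called in hepatocytes that passed the 8 TPM limit on both sides. Ugt3a1 had 28.4 and 36.4 TPM in A/J, 9.58 and 8.62 TPM in BALB/cJ and 12.9, 20.5 and 23.9 TPM in C57BL/6J hepatocytes (A/J minus BALB/cJ 1.94 ± 0.26, adjusted p = 0.00149, BALB/cJ minus C57BL/6J -1.18 ± 0.24, adjusted p = 0.00587). The second of these was not called without the second BALB/cJ library (adjusted p = 0.0645) or with the replicate number as a block (-0.98). Ugt3a2 had 145 and 167 TPM in A/J, 68.1 and 69.3 TPM in BALB/cJ and 134, 156 and 181 TPM in C57BL/6J (1.28 ± 0.17, adjusted p = 0.00178, and -1.30 ± 0.16, adjusted p = 0.000502). In both genes BALB/cJ libraries were below all others.

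At the Ugt1a locus, Ugt1a9 had 337 and 404 TPM in A/J, 201 and 192 TPM in BALB/cJ and 231, 267 and 259 TPM in C57BL/6J hepatocytes. A/J minus BALB/cJ was 1.02 ± 0.17 (adjusted p = 0.00453), while the other 7 Ugt1a genes stood at 0.57 to 0.74, short of 1. For Ugt1a9 the A/J libraries held 1860 and 4383 reads beyond the shared ones, the BALB/cJ libraries 640 and 349 and the C57BL/6J libraries 241, 820 and 491, so the A/J libraries were apart in the exon of Ugt1a9 itself. The call for Ugt1a9 was lost without the second A/J library (0.84) or without either BALB/cJ library (adjusted p = 0.058 and 0.0542). Gstp1 was the most variable of the abundant members, with 110 and 274 TPM in A/J, 892 and 811 TPM in BALB/cJ and 187, 350 and 704 TPM in C57BL/6J. Its A/J minus BALB/cJ difference of -2.03 ± 0.67 did not pass (adjusted p = 0.115), and the C57BL/6J libraries spread between the other strains.

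**Figure D3:**
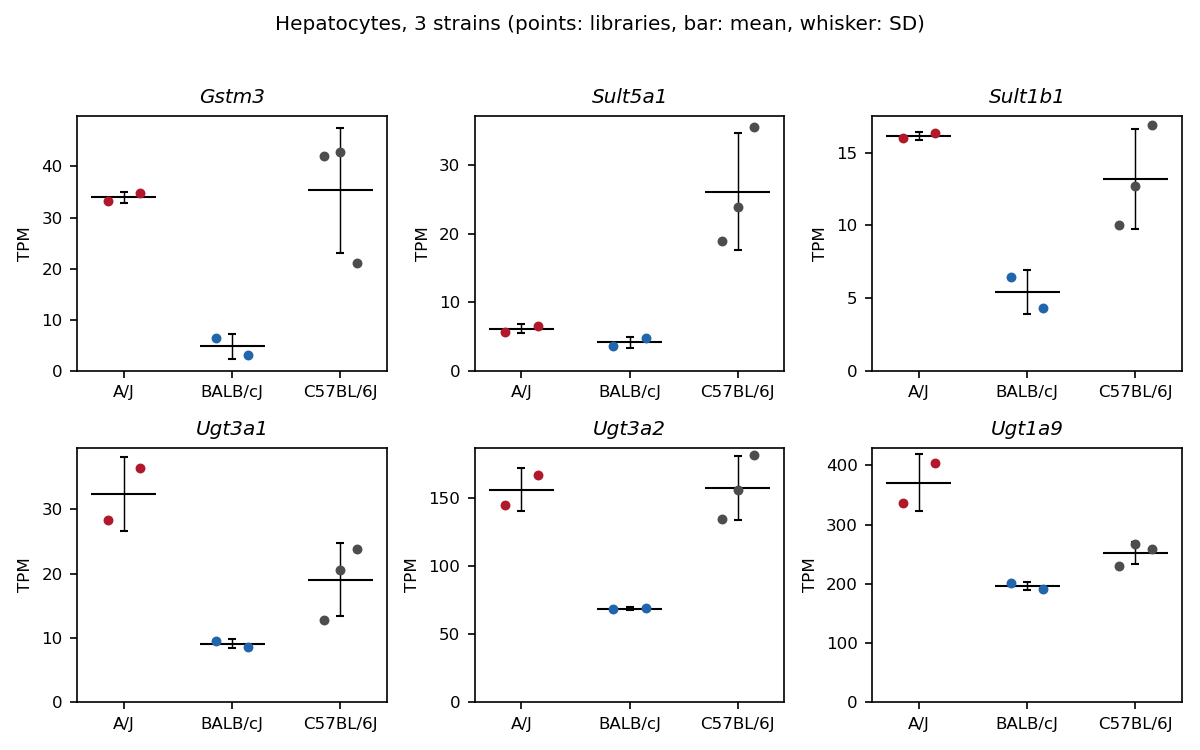
TPM of 6 members in hepatocytes of the 3 inbred strains (points are libraries, bars the mean, whiskers the SD). BALB/cJ points lie below all others for Gstm3, Sult1b1, Ugt3a1, Ugt3a2 and Ugt1a9, and C57BL/6J points lie above all others for Sult5a1.

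In counts, 5 of 39 members tested were higher and 0 lower in A/J relative to BALB/cJ hepatocytes (5.48% of all genes called). Of 41 tested, 1 was lower in A/J relative to C57BL/6J (3.67% called). Of 41, 5 were lower and 0 higher in BALB/cJ relative to C57BL/6J (9.25% called). The BALB/cJ minus C57BL/6J difference was also past the adjusted p threshold but short of 1 for Gstm1 (-0.89, 801 and 761 TPM in A/J, 716 and 538 TPM in BALB/cJ, 1225, 1167 and 803 TPM in C57BL/6J, adjusted p = 0.0161), Sult1a1 (-0.81, adjusted p = 0.0414), Gsto1 (-0.58, adjusted p = 0.0182) and Gstk1 (0.63, adjusted p = 0.0361). Of the listed genes around them, Glo1, the glyoxalase that uses glutathione, was higher in A/J than in both other strains (1.33 and 1.40), and Nnmt, which methylates nicotinamide, was lower (-4.85 and -3.37). Ugdh, which makes UDP-glucuronate, was lower in A/J relative to BALB/cJ (-1.11), and Gclc, the catalytic subunit for glutathione synthesis, was lower in BALB/cJ relative to C57BL/6J (-1.16).

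In untreated Kupffer cells, Gstm5 stood out in BALB/cJ and the Ugt1a locus was low in C57BL/6J. Gstm5, a mu-class gene at chr3:107895854-107898685, had 5.05 and 6.85 TPM in A/J, 19.4 and 19 TPM in BALB/cJ and 6.54 and 4.62 TPM in C57BL/6J Kupffer cells, and 13.3, 11.4, 12.7 and 14.2 TPM in the hybrid. BALB/cJ libraries lay above all others and the hybrid between its parents, although hybrid levels come from a table normalized separately. The log2 difference was -1.75 ± 0.26 (A/J minus BALB/cJ, adjusted p = 0.000905) and 1.82 ± 0.26 (BALB/cJ minus C57BL/6J, adjusted p = 0.000445). Ugt1a7c had 9.52 and 16.6 TPM in A/J, 14.4 and 12.7 TPM in BALB/cJ and 5.5 and 6.53 TPM in C57BL/6J, with C57BL/6J libraries below all others. All 8 Ugt1a genes, which read one locus, were called, at 1.00 to 1.18 for A/J minus C57BL/6J and 1.07 to 1.22 for BALB/cJ minus C57BL/6J (Ugt1a7c 1.09 ± 0.21, adjusted p = 0.00516, and 1.22 ± 0.21, adjusted p = 0.00202). None of the 8 was called for A/J minus C57BL/6J without the first C57BL/6J library, at 0.77 to 0.96.

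Sult1a1 and Gsto1 ran the other way in Kupffer cells, highest in C57BL/6J but short of a log2 difference of 1. Sult1a1 had 76.6 and 84.6 TPM in A/J, 57.3 and 79 TPM in BALB/cJ and 149 and 116 TPM in C57BL/6J Kupffer cells (A/J minus C57BL/6J -0.72 ± 0.15, adjusted p = 0.00724, BALB/cJ minus C57BL/6J -0.92 ± 0.15, adjusted p = 0.00133). Gsto1 had 52.3 and 65 TPM in A/J, 51.9 and 57 TPM in BALB/cJ and 95.4 and 89.1 TPM in C57BL/6J (-0.67 ± 0.12, adjusted p = 0.00221, and -0.72 ± 0.12, adjusted p = 0.00108). In both genes the 2 C57BL/6J libraries were above the other 4.

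Under the 8 TPM limit, Sult4a1, an orphan sulfotransferase best known from brain, was well above 1 TPM in untreated Kupffer cells of BALB/cJ alone. It had 0.233 and 0.161 TPM in A/J, 7.16 and 7.20 TPM in BALB/cJ and 0.161 and 0.555 TPM in C57BL/6J, from 5 and 3, 174 and 142, and 3 and 9 reads, and 0.779, 1.34, 0.948 and 1.07 TPM in the hybrid. It reached 1 TPM, and so became a member, only through BALB/cJ Kupffer cells, so this strain difference is given without a test. The other 4 cell types averaged at most 0.196 TPM of Sult4a1. Gstp2 had 6 and 1 reads in A/J Kupffer cells, 19 and 32 in BALB/cJ and 34 and 26 in C57BL/6J. Reads of Gstp2 and Gstp1 are hard to separate.

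In counts, 1 of 15 members was lower and 0 higher in A/J relative to BALB/cJ Kupffer cells (3.38% of all genes called). In the second pair 8 of 13, all of them Ugt1a genes, were higher in A/J relative to C57BL/6J (4.61% called). In the third pair 9 of 15, the same 8 and Gstm5, were higher in BALB/cJ relative to C57BL/6J (5.7% called). As the 8 Ugt1a genes read the same exons, these counts reflect 1 and 2 loci. All these calls rest on members that passed the 8 TPM limit only in the strain where they were higher. In one fit over the 27 parental Kupffer libraries only Gstm5 and Ugt1a7c were called. There the 8 Ugt1a genes had an adjusted p of 0.0612 to 0.225 for A/J minus C57BL/6J, and those other than Ugt1a7c 0.0569 to 0.135 for BALB/cJ minus C57BL/6J. Of the listed genes, Gsr, glutathione reductase, was below its C57BL/6J level in A/J (-2.18) and BALB/cJ (-1.84), and Ahr, the aryl hydrocarbon receptor, was higher in both (1.28 and 1.05).

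In LSECs, Sult1a1 was the one member called. It had 56.4, 64.4, 39.1 and 39.4 TPM in A/J, 79.2, 122, 83.3 and 94.4 TPM in BALB/cJ and 127, 136, 145 and 141 TPM in C57BL/6J, in 3 ranges that did not overlap. A/J minus C57BL/6J was -1.41 ± 0.18 (adjusted p = 0.000121), A/J minus BALB/cJ -0.89 ± 0.18 (adjusted p = 0.00503) and BALB/cJ minus C57BL/6J -0.52 ± 0.17 (adjusted p = 0.0486). That made 1 of 23 members lower in A/J relative to C57BL/6J (4.14% of all genes called). Between A/J and BALB/cJ edgeR called 0 of 23 (2.67% called, 3 at an unadjusted p under 0.05) and between BALB/cJ and C57BL/6J 0 of 22 (3.86% called, 4 at an unadjusted p under 0.05), and DESeq2 called 1 member over the 3 pairs. Gsto1 in A/J (31.6, 29.2, 22.2 and 23.9 TPM) and BALB/cJ (34, 30.4, 31.4 and 30.5 TPM) was below C57BL/6J (44.7, 44.1, 41.8 and 48.6 TPM), by -0.69 ± 0.11 (adjusted p = 0.000658) and -0.49 ± 0.11 (adjusted p = 0.0067).

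In stellate cells, Gstm1 and Gsto1 were highest in C57BL/6J and Gsta4 and Gstm5 in BALB/cJ. Gstm1 had 232, 271, 220 and 291 TPM in A/J, 234, 203, 265 and 259 TPM in BALB/cJ and 534, 592 and 627 TPM in C57BL/6J stellate cells, with no overlap of C57BL/6J and the others. It differed by -1.14 ± 0.12 (A/J minus C57BL/6J, adjusted p = 4.86e-05) and -1.24 ± 0.12 (BALB/cJ minus C57BL/6J, adjusted p = 2.9e-05). Gsto1 had 28.6, 26.7, 27.8 and 25.1 TPM in A/J, 16.7, 13.5, 16 and 16.9 TPM in BALB/cJ and 36.7, 44.2 and 30 TPM in C57BL/6J, 3 ranges apart from each other, with BALB/cJ minus C57BL/6J at -1.19 ± 0.13 (adjusted p = 6.6e-05). Gsto1 is also high in Kupffer cells. Kupffer markers averaged 4332 TPM in A/J, 623 TPM in BALB/cJ and 1917 TPM in C57BL/6J stellate libraries, and their part in the Gsto1 differences was not tested. Gsta4 had 28, 34.8, 19.4 and 28.5 TPM in A/J, 45.3, 47.7, 42.8 and 53.8 TPM in BALB/cJ and 15.9, 18.3 and 22.3 TPM in C57BL/6J (BALB/cJ minus C57BL/6J 1.37 ± 0.19, adjusted p = 0.000272). BALB/cJ was above all other libraries for Gsta4. Gstm5 had 9.12, 9.43, 10.9 and 11.2 TPM in A/J, 17.5, 14.5, 17.2 and 20.4 TPM in BALB/cJ and 5.63, 7.58 and 11.3 TPM in C57BL/6J (BALB/cJ minus C57BL/6J 1.12 ± 0.23, adjusted p = 0.00261, not called without the first C57BL/6J library at 0.91).

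Ugt1a9 and Ugt1a6b were also called in stellate cells, at levels that moved with hepatocyte RNA and that passed the 8 TPM limit only in the strains where they were higher. Ugt1a9 had 8.92, 14.2, 3.91 and 7.49 TPM in A/J, 4.49, 1.07, 2.01 and 0.895 TPM in BALB/cJ and 8.33, 7.95 and 2.88 TPM in C57BL/6J (A/J minus BALB/cJ 2.12 ± 0.55, adjusted p = 0.0134). Alb in the same libraries stood at 1180, 1669, 329 and 607 TPM, 714, 183, 297 and 214 TPM, and 1153, 1178 and 292 TPM, and its part in the result was not tested. Ugt1a6b had log2 differences of 1.83 ± 0.52 (A/J minus BALB/cJ, adjusted p = 0.0207) and -1.58 ± 0.56 (BALB/cJ minus C57BL/6J, adjusted p = 0.0398), and both were lost, at adjusted p of 0.0501 to 0.103, on leaving out single libraries. In counts, 2 of 14 members were higher in A/J relative to BALB/cJ (8.32% of all genes called). Of 15, 1 was lower in A/J relative to C57BL/6J (7.3% called). Of 14, 2 were higher and 3 lower in BALB/cJ relative to C57BL/6J (9.08% called), and 6 members were called over the 3 pairs, against 13 without the third A/J library. Hmox1, heme oxygenase, was also higher in A/J relative to BALB/cJ stellate cells (2.59), beside the Kupffer markers in the A/J libraries.

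In PBS-treated BMDMs, 5 GST genes were lower in A/J relative to BALB/cJ. All 5 passed the 8 TPM limit only through BALB/cJ and could be called in this direction alone. With the limit dropped, Gstm2 was called higher in A/J (3.22, adjusted p = 0.00047), and Gstm7, Gstt1 and Sult1a1 were called lower in A/J. Gstk1 had 2.0 and 2.43 TPM in A/J, 8.98 and 7.80 TPM in BALB/cJ and 3.6 and 5.01 TPM in C57BL/6J BMDMs, 3 ranges apart from each other (A/J minus BALB/cJ -1.94 ± 0.26, adjusted p = 8.12e-06). Gstm5 had 3.02 and 3.96 TPM in A/J, 11.5 and 9.51 TPM in BALB/cJ and 6.57 and 4.15 TPM in C57BL/6J (-1.61 ± 0.25, adjusted p = 4.75e-05), so BALB/cJ was highest in BMDMs as in Kupffer and stellate cells. Gstp1 had 4.66 and 3.53 TPM in A/J, 10.2 and 12.3 TPM in BALB/cJ and 6.34 and 7.85 TPM in C57BL/6J (-1.52 ± 0.24, adjusted p = 4.66e-05). For Gstt2, a theta-class gene, A/J had 5.02 and 4.85 TPM, BALB/cJ 11.1 and 12.2 TPM and C57BL/6J 5.00 and 4.38 TPM. BALB/cJ differed from both others (A/J minus BALB/cJ -1.28 ± 0.18, adjusted p = 1.14e-05, and BALB/cJ minus C57BL/6J 1.30 ± 0.18, adjusted p = 1.06e-05). Gstt3 was called at -1.10 ± 0.22 (adjusted p = 0.000805) but stood at -0.97 in DESeq2 and at -0.95 without the second A/J library.

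The Ugt1a locus ran the other way in BMDMs, with Ugt1a7c at 118 and 113 TPM in A/J, 77.8 and 70.8 TPM in BALB/cJ and 64.4 and 72.4 TPM in C57BL/6J, and A/J above all others. Its log2 difference was 0.59 ± 0.09 (A/J minus BALB/cJ, adjusted p = 2.41e-05) and 0.69 ± 0.09 (A/J minus C57BL/6J, adjusted p = 3.58e-06), and the other Ugt1a genes reached 0.86 and 0.98, all short of 1. In counts, 5 of 17 members were lower in A/J relative to BALB/cJ (4.19% of all genes called), and 1 of 17 was higher in BALB/cJ relative to C57BL/6J (4.56% called). Between A/J and C57BL/6J edgeR called 0 of 11 (5.59% called), with 11 at an unadjusted p under 0.05 and 10 at an adjusted p under 0.05, and DESeq2 called 4 members over the 3 pairs. Over the 3 pairs 5 members were called, against 11 without the second A/J library and 13 without the second C57BL/6J library. In that pair Gsto1 (71.8 and 65.8 TPM in A/J, 73.6 and 78 TPM in BALB/cJ, 118 and 107 TPM in C57BL/6J) differed by -0.77 ± 0.09 (adjusted p = 1.38e-06). Gstm1 (79.1 and 63.8 TPM in A/J, 90.9 and 103 TPM in BALB/cJ, 139 and 122.996 TPM in C57BL/6J) differed by -0.94 ± 0.11 (adjusted p = 2.65e-06).

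**Figure D4:**
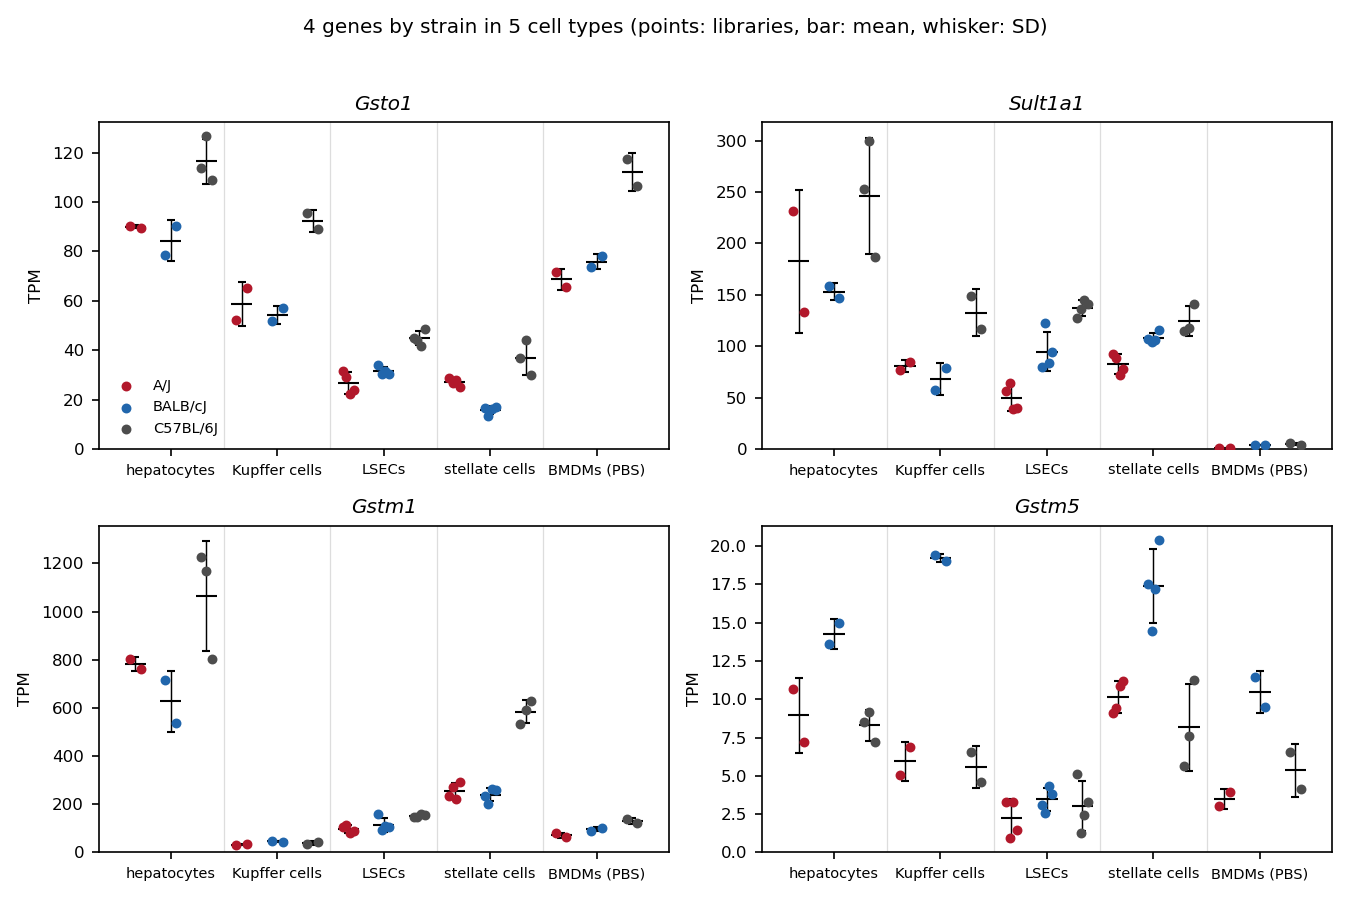
TPM of Gsto1, Sult1a1, Gstm1 and Gstm5 by inbred strain in 5 cell types (points are libraries, bars the mean, whiskers the SD). C57BL/6J has the highest mean of Gsto1 in all 5 cell types, and the 3 strains of Sult1a1 separate most in LSECs. BALB/cJ has the highest mean of Gstm5 in all 5 cell types.

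Whether a strain difference depended on the cell type was tested in one fit over the 4 liver cell types. Of 41 members 3 were called, where 29.7% of all genes were. They were Gstm1, Sult1a1 and Gsto1. Gstm1 (largest difference between strain differences 1.57 on the log2 scale, adjusted p = 0.000764) set C57BL/6J apart in stellate cells, while in Kupffer cells the 3 ranges lay apart in another order, with A/J lowest and BALB/cJ highest (30.0 and 33.0 TPM in A/J, 48.7 and 45.0 TPM in BALB/cJ, 34.0 and 43.7 TPM in C57BL/6J). The value was 1.30 for Sult1a1 (adjusted p = 0.00528) and -1.0 for Gsto1 (adjusted p = 0.000305). The part of Kupffer RNA in the stellate libraries, which differed by strain, was not tested in these 3 results. Mean Gsto1 levels of both A/J and BALB/cJ were below that of C57BL/6J in all 5 cell types. The fits gave A/J minus C57BL/6J between -0.38 and -0.77 and BALB/cJ minus C57BL/6J between -0.49 and -1.19. Only the A/J difference in hepatocytes had an adjusted p above 0.05 (0.162).

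LPS was given for 2 h. C57BL/6J Kupffer cells had 6 members higher and 1 lower of 11 tested after LPS (38.2% of all genes called). The 6 passed the 8 TPM limit only through the LPS libraries, so their direction was set by it, while Sult1a1, the lower one, passed in both groups. In BALB/cJ edgeR called 0 of 15 members (31.8% called), 0 at an unadjusted p under 0.05. With the 8 TPM limit dropped, 7 low members were called in BALB/cJ and 11 in C57BL/6J. The share of all genes called without the limit is not given, so nothing is drawn from these counts. In BALB/cJ Gstt3 was lower (-2.63, adjusted p = 0.00375), and Sult2a8, Ugt2a3, Ugt2b1, Ugt2b34, Ugt2b36 and Ugt2b5, all abundant in hepatocytes, were higher by 2.03 to 2.56. In C57BL/6J Gstt2 was lower (-1.67, adjusted p = 0.0218). The other 10 were Ugt1a10, Ugt1a2, Ugt1a5, Ugt1a6a, Ugt1a9, Ugt2a3, Ugt2b1, Ugt2b34, Ugt2b36 and Ugt2b5, higher by 1.34 to 2.85. In the hybrid 8 such members were called, Gsta3, Sult1d1, Sult2a8, Ugt2a3, Ugt2b1, Ugt2b36, Ugt2b5 and Ugt3a2, all higher, by 1.03 to 2.90. DESeq2 called 6 over both strains, and edgeR called 4 without the first untreated C57BL/6J library and 1 without the second C57BL/6J LPS library. The members called in C57BL/6J included genes that are abundant in hepatocytes, and Alb stood at 379 and 979 TPM in C57BL/6J LPS libraries, against 101 and 310 TPM in untreated ones. Sult2a8 had 5.81 and 11.0 TPM after LPS, against 0.815 and 1.37 TPM untreated (log2 difference 3.63 ± 0.55, adjusted p = 0.000339). Gsta3 had 3.90 and 13.4 TPM against 1.18 and 2.94 TPM (2.77 ± 0.70, adjusted p = 0.00667). Median hepatocyte markers in those libraries were 0.751% and 1.69% of the hepatocyte level after LPS, against 0.197% and 0.399% untreated, and their part in both results was not tested. In BALB/cJ, Alb stood at 187 and 340 TPM after LPS, against 77.5 and 161 TPM. Markers of other cells moved as well. The 9 Kupffer markers summed to 10270 to 12530 TPM after LPS in C57BL/6J, against 19230 to 19630 TPM untreated, and to 12220 to 13270 TPM in BALB/cJ, against 18120 to 19510 TPM. The 5 neutrophil and monocyte markers summed to 79.0 to 115 TPM after LPS in C57BL/6J, against 4.68 to 6.47 TPM (1 at 0 untreated), and to 40.7 to 50.6 TPM in BALB/cJ (1 at 0), against 4.34 to 11.4 TPM (3 at 0). Their part in the LPS results, Sult1a1 included, was not tested.

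TPM values of most genes were lower after LPS. The median log2 ratio of TPM over the genes tested was -0.49 in BALB/cJ, -0.59 in C57BL/6J and -0.76 in the hybrid. The fitted values, scaled to a common majority of genes (TMM), had medians of 0.05, 0.08 and 0.11. The changes given here are relative to that majority. At the Ugt1a locus, Ugt1a1 had 6.61 and 10.5 TPM in C57BL/6J after LPS, against 4.28 and 5.75 TPM untreated (1.45 ± 0.29, adjusted p = 0.00189). Ugt1a7c had 7.24 and 9.89 TPM, against 5.50 and 6.53 TPM (1.19 ± 0.24, adjusted p = 0.0017). Without that scaling the values were 0.75 and 0.50, neither called, and Ugt1a6b (0.69) and Gstk1 (0.39) were not called either. Gstk1 was also not called in one fit over the 27 parental Kupffer libraries (adjusted p = 0.0641). Ugt1a7c held 26 and 26 reads beyond the lowest Ugt1a gene of the library after LPS, against 41 and 34 untreated. Ugt1a1 held 12 and 32 against 9 and 15, all before any scaling for depth.

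Sult1a1 fell to 47.6 and 34.1 TPM in C57BL/6J Kupffer cells after LPS, against 149 and 116 TPM untreated (-1.03 ± 0.36, adjusted p = 0.0347). The call was lost on leaving out any one of the 4 libraries (-0.87 to -1.26, adjusted p = 0.0563 to 0.168) and in DESeq2 (-0.97). In BALB/cJ it had 21.3 and 47.3 TPM after LPS, against 57.3 and 79.0 TPM (-0.48 ± 0.36, adjusted p = 0.28). In the hybrid it had 40, 27.4, 34.6, 30.1 and 45 TPM after LPS, against 103, 93.4, 109 and 111 TPM untreated, ranges far apart, with a fitted difference of -0.68 ± 0.14 (adjusted p = 0.000778) relative to the majority of genes. In the hybrid edgeR called 0 of 9 members (39.5% of all genes called), with 7 at an unadjusted p under 0.05 and 6 at an adjusted p under 0.05, and DESeq2 called 0. The difference of the LPS response between BALB/cJ and C57BL/6J passed for 0 of 17 members (0.645% of all genes called, 10 at an unadjusted p under 0.05, not run in DESeq2). Ugt1a7c stood at -1.04 ± 0.32 (adjusted p = 0.197) and Sult1a1 at 0.55 (adjusted p = 0.681), so the responses of both strains were not shown to differ. Without the first C57BL/6J LPS library 9 members passed.

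After LPS the NRF2 targets gave 6 higher and 4 lower of 21 in BALB/cJ, 6 and 3 of 21 in C57BL/6J and 7 and 2 of 21 in the hybrid, beside 31.8%, 38.2% and 39.5% of all genes called there. Txnrd1, thioredoxin reductase, rose by 3.02 in BALB/cJ, 2.34 in C57BL/6J and 3.30 in the hybrid on the log2 scale, and Hmox1 by 1.08, 1.71 and 2.30. For glutathione supply and use, 1 was higher and 4 lower of 14 in BALB/cJ, 1 and 2 of 11 in C57BL/6J, and 1 and 4 of 13 in the hybrid. Gsr rose (2.21, 1.48 and 1.73) and Gclc fell (-1.52, -1.13 and -1.66). Of the regulators 4 of 12 were higher in BALB/cJ, 4 of 11 in C57BL/6J and 5 of 11 in the hybrid, and 2 were lower in each, with Maff, a small MAF partner of NRF2, at 6.17, 5.15 and 6.56 and Cebpa, a C/EBP factor, at -4.34, -4.18 and -5.31. Of the cofactor genes only Slc35b3, a PAPS carrier, was called, in BALB/cJ (1 of 9). Among other conjugation enzymes, 2 were higher and 1 lower of 4 in BALB/cJ, and 1 and 1 of 3 in C57BL/6J and in the hybrid.

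In BMDMs no tested member passed the threshold for KLA, which acts on TLR4 like LPS. By edgeR, 0 of 11 members passed in A/J (12.3% of all genes called, 2 members at an unadjusted p under 0.05) and 0 of 17 in BALB/cJ (14.1%, 2). The counts were 0 of 11 in C57BL/6J (17.1%, 10) and 0 of 14 in CB6F1/J (12.4%, 2), and DESeq2 called 0. Gstz1 had 12.1 and 10.9 TPM after KLA in A/J, against 18.7 and 18.3 TPM with PBS, and 8.71 and 9.37 TPM against 16.9 and 15.3 TPM in BALB/cJ. It had 8.86 and 7.97 TPM against 15.2 and 14.4 TPM in C57BL/6J and 9.83 and 9.72 TPM against 14.2 and 15.5 TPM in the hybrid. These KLA libraries were below PBS libraries in all 4 genotypes. The fitted difference was -0.36 ± 0.11 (adjusted p = 0.0104), -0.52 ± 0.11 (adjusted p = 0.000699), -0.51 ± 0.12 (adjusted p = 0.00073) and -0.26 (adjusted p = 0.0704). These stand beside a median TPM ratio of all genes of -0.27, -0.27, -0.23 and -0.27 on the log2 scale. Gsto1 in C57BL/6J had 66.7 and 62.2 TPM after KLA, against 118 and 107 TPM with PBS (-0.50, adjusted p = 8.67e-05). The KLA response differed by strain for 0 of 17 members (2.54% of all genes called, 8 at an unadjusted p under 0.05, not run in DESeq2).

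Below the 8 TPM limit, Gstt4, a little-studied theta-class gene, was near 0 in BMDMs with PBS and had reads in every KLA library. It had 0.82 and 0.19 TPM after KLA in A/J, 1.35 and 1.25 TPM in BALB/cJ, 1.22 and 1.42 TPM in C57BL/6J and 1.30 and 1.44 TPM in the hybrid, from 13 and 4, 23 and 30, 25 and 21, and 71 and 87 reads. With PBS the counts were 0 and 0, 1 and 0, 0 and 0, and 1 and 8 reads. KLA-treated BMDMs were the groups through which Gstt4 reached 1 TPM and became a member, so the difference is given without a test. With a filter on counts alone Gstt1 was higher after KLA in C57BL/6J (1.80 and 1.91 TPM, against 0.888 and 0.907 TPM with PBS, 1.33, adjusted p = 0.00247) and in the hybrid (3.39 and 3.01 TPM, against 1.39 and 1.45 TPM, 1.51, adjusted p = 0.000756). Sult1a1 was lower after KLA in BALB/cJ with that filter (1.64 and 0.784 TPM, against 3.63 and 3.575 TPM, -1.3, adjusted p = 0.00401). Of 22 NRF2 targets 2 were higher and 1 lower in each of the 4 genotypes, Slc7a11, the cystine importer (3.88 in A/J, 3.84 in BALB/cJ, 5.76 in C57BL/6J and 4.52 in the hybrid), and Txnrd1 among them, a share close to the 12.3% to 17.1% of all genes called. No cofactor gene or other conjugation enzyme was called.

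On the AMLN diet the Kupffer cells of the 3 strains gave different calls. In C57BL/6J 8 of 13 members were higher and 1 lower than in untreated cells (12.1% of all genes called), the 8 being the Ugt1a genes of one locus. All 8 passed the 8 TPM limit only through the diet libraries, so their direction was set by it. Ugt1a7c had 16.8, 15.1, 12.3 and 15.2 TPM on the diet, against 5.50 and 6.53 TPM untreated (1.5 ± 0.31, adjusted p = 0.00286), without overlap, and the others stood at 1.27 to 1.38. These fitted values are relative to the majority of genes, whose median log2 TPM ratio was -0.21 in C57BL/6J, 0.03 in BALB/cJ and -0.14 in A/J. Ugt1a7c held 323, 233, 230 and 260 reads beyond the lowest Ugt1a gene of the library on the diet, against 41 and 34 untreated, before any scaling for depth. Sult1a1 fell to 26.3, 57.1, 48.1 and 31.4 TPM on the diet, against 149 and 116 TPM (-1.49 ± 0.34, adjusted p = 0.00579). The first untreated C57BL/6J library carried weight in both. Without it Sult1a1 stood at -1.33 (adjusted p = 0.0706), the Ugt1a genes had an adjusted p of 0.0606 to 0.192, and 1 member was called over the 3 strains (3 without the second untreated C57BL/6J library). Alb was 95.7, 365, 101 and 126 TPM on the diet in C57BL/6J, against 101 and 310 TPM. The 9 Kupffer markers summed to 10970 to 14290 TPM on the diet, against 19230 to 19630 TPM untreated. The 5 neutrophil and monocyte markers summed to 36.8 to 55.2 TPM, against 4.68 to 6.47 TPM, and the 3 lymphocyte markers to 13.2 to 39.4 TPM, against 2.77 to 8.15 TPM. Their part in the Ugt1a and Sult1a1 differences was not tested.

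In BALB/cJ 1 of 20 members was called, higher on the diet (5.17% of all genes called). Gstm2, the stellate and endothelial member, had 6.28, 7.31 and 17.9 TPM on the diet, against 0.605 and 1.12 TPM untreated (3.47 ± 0.71, adjusted p = 0.00664), a call that passed the 8 TPM limit through the diet libraries only and was lost without the first untreated library (3.05, adjusted p = 0.137). Alb stood at 951, 1426 and 862 TPM on the diet in BALB/cJ, against 77.5 and 161 TPM. The 10 stellate markers, none at 0, summed to 561.7 to 1156 TPM on the diet, against 300.8 to 366.8 TPM untreated. The 9 LSEC markers, none at 0, summed to 722.7 to 2896 TPM, against 233.7 to 233.9 TPM, and their part in the result was not tested. In A/J edgeR called 0 of 14 members (3.49% of all genes called, 0 at an unadjusted p under 0.05), and DESeq2 called 11 members over the 3 strains. With the 8 TPM limit dropped, edgeR also called Gstm2 higher on the diet in A/J (2.5, adjusted p = 0.0315) and Gstm5 lower there (-1.61, adjusted p = 0.0129). Alb in A/J stood at 130, 2014, 63.9 and 1627 TPM on the diet, against 233.5 and 366 TPM untreated. The LSEC markers summed to 318 to 1237 TPM, against 289 to 303 TPM. The stellate markers summed to 90.4 to 548 TPM, against 166 to 193 TPM. Their part in these A/J differences was not tested. Without the limit edgeR called Ugt2b5 higher in BALB/cJ (3.02, adjusted p = 0.0478) and Sult4a1 lower in C57BL/6J (-2.91, adjusted p = 0.0357). Sult4a1 had only 1, 3, 2 and 0 reads in C57BL/6J on the diet, against 3 and 9 untreated, so nothing is drawn from that call. Sult1a1 had 36.7, 103, 76.5 and 91.4 TPM on the diet in A/J, against 76.6 and 84.6 TPM, and 120, 77.2 and 102 TPM in BALB/cJ, against 57.3 and 79 TPM. C57BL/6J libraries on the diet lay below both untreated ones while the ranges overlapped in A/J and BALB/cJ. The diet effect differed by strain for 0 of 20 members (3.7% of all genes called, 10 at an unadjusted p under 0.05, not run in DESeq2). Sult1a1 stood at 1.92 (adjusted p = 0.069), Gstm2 at 3.40 (adjusted p = 0.0902) and Ugt1a7c at -1.45 (adjusted p = 0.0991). Without the first A/J library on the diet 4 members passed, and without the first BALB/cJ library on the diet 1 did.

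Of the listed genes, Papss2, which makes PAPS for the SULT enzymes, was higher on the diet in BALB/cJ (log2 difference 2.0, 1 of 10 cofactor genes), and Gusb, the glucuronidase that undoes UGT conjugates, in C57BL/6J (1.52, 1 of 8). Gsr and Oplah, of glutathione recycling, fell in C57BL/6J (-1.42 and -2.15, 2 of 13), and Oplah in A/J (-1.38, 1 of 13). Of 21 NRF2 targets 1 was lower in A/J, 0 were called in BALB/cJ and 1 was higher in C57BL/6J, 1 of 2 other conjugation enzymes was lower in C57BL/6J, and 0 regulators were called.

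Kupffer cells grown from donor marrow were compared in hosts of the NSG strain. Sex-biased genes differed between the marrow groups, as given below for Sult3a1, Sult3a2 and Xist. The part of host or donor sex in the differences between marrows was not tested. Between BALB/cJ and C57BL/6J marrow edgeR called 0 of 17 members (3.98% of all genes called), with 12 at an unadjusted p under 0.05 and 9 at an adjusted p under 0.05, and DESeq2 called 0. Without the third C57BL/6J marrow library 6 were called, and without the first BALB/cJ marrow library 1 was. Gsto1 had 66.2, 48.6 and 61.4 TPM with BALB/cJ marrow, against 120, 103 and 93.1 TPM with C57BL/6J marrow (-0.77 ± 0.13, adjusted p = 0.000588), without overlap. Ugt1a7c had 14.4, 15.4 and 15.7 TPM with BALB/cJ marrow, against 11.4, 7.43 and 10.3 TPM with C57BL/6J marrow (0.71 ± 0.15, adjusted p = 0.00457), also without overlap, and the Ugt1a genes ranged from 0.71 to 0.92.

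Against untreated Kupffer cells of the same strain, C57BL/6J cells in NSG hosts had 1 member higher and 1 lower of 11 (8.44% of all genes called). In BALB/cJ edgeR called 0 of 16 (5.48% called, 3 at an unadjusted p under 0.05), while DESeq2 called 2 over both. Without the first untreated C57BL/6J library or the third C57BL/6J NSG library 1 was called. Sult1a1 fell to 45.7, 48.2 and 50.1 TPM in C57BL/6J cells of NSG hosts, against 149 and 116 TPM untreated (-1.51 ± 0.16, adjusted p = 1.15e-05). It had 56.5, 40.6 and 52.8 TPM in BALB/cJ cells of NSG hosts, against 57.3 and 79 TPM (-0.47, adjusted p = 0.0551). Hybrid cells had 93.7, 87.2 and 85.6 TPM of Sult1a1 in NSG hosts, against 103, 93.4, 109 and 111 TPM untreated. Gsta3 had 7.36, 7.13 and 11.4 TPM in C57BL/6J cells of NSG hosts, against 1.18 and 2.94 TPM (2.02 ± 0.48, adjusted p = 0.00386, not called without the first untreated library at 1.47, nor in one fit over the 27 parental Kupffer libraries, adjusted p = 0.128), and passed the 8 TPM limit through the NSG libraries only. Alb was 141 to 308 TPM in those NSG libraries, against 101 and 310 TPM. The 3 lymphocyte markers summed to 236 to 330 TPM in C57BL/6J cells of NSG hosts, against 2.77 to 8.15 TPM untreated, and to 59.6 to 274 TPM in BALB/cJ cells of NSG hosts, against 0.274 to 0.706 TPM. In C57BL/6J the neutrophil and monocyte markers summed to 41.0 to 48.2 TPM in NSG hosts, against 4.68 to 6.47 TPM, and the Kupffer markers to 14880 to 16510 TPM, against 19230 to 19630 TPM. Their part in the Sult1a1 and Gsta3 differences was not tested. Papss2 was higher in both NSG groups (1.74 in BALB/cJ and 1.11 in C57BL/6J) and Cebpa (-1.07 and -1.06) and Oplah (-1.87 and -1.68) were lower.

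Sult3a1 and Sult3a2, sulfotransferases on chromosome 10 whose expression in mouse liver is higher in females, were detected in Kupffer cells of some NSG hosts. Sult3a1 had 4.92, 3.90 and 7.88 TPM with C57BL/6J marrow, from 33, 30 and 58 reads, and 8.95, 4.76 and 4.22 TPM with hybrid marrow, but 0 with BALB/cJ marrow and in all untreated Kupffer cells. Sult3a2 had 2.04, 1.94 and 3.71 TPM with C57BL/6J marrow and 4.58, 1.77 and 2.22 TPM with hybrid marrow. It became a member only through Kupffer cells of C57BL/6J marrow in NSG hosts, so its levels are given without a test. Other sex-linked or male-biased genes moved in the same libraries: Xist, made from the inactive X of female cells, stood at 1.06 to 1.39 TPM with C57BL/6J marrow, 70.0 to 76.9 TPM with hybrid marrow and 0.02 to 0.05 TPM with BALB/cJ marrow. Mup20, a male-biased hepatocyte gene, was at 0 TPM with C57BL/6J and hybrid marrow, against 5.35 to 13.9 TPM in untreated C57BL/6J and 8.8 to 17.3 TPM in untreated hybrid Kupffer cells. The part of the sex of host or donor in the Sult3a levels was not tested.

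**Figure D5:**
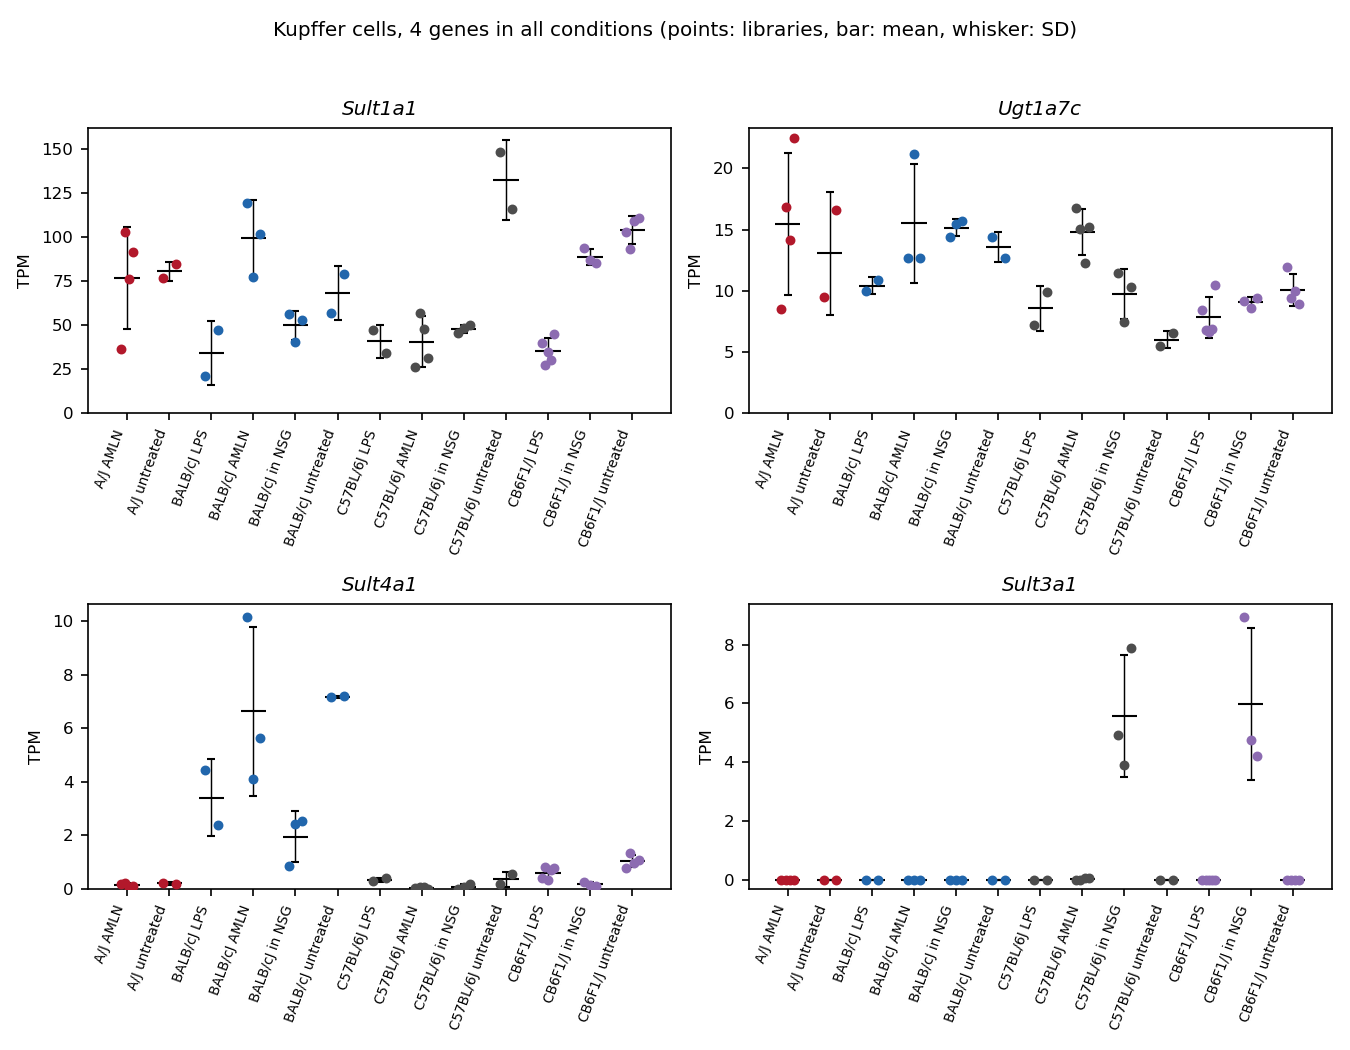
TPM of Sult1a1, Ugt1a7c, Sult4a1 and Sult3a1 in the 13 groups of Kupffer cell libraries (points are libraries, bars the mean). Sult1a1 is high in untreated C57BL/6J cells (149 and 116 TPM) and lower in their LPS, AMLN and NSG groups, Sult4a1 has its 4 highest means in the BALB/cJ groups, and Sult3a1 is above 0 in NSG groups with C57BL/6J or hybrid marrow.

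In the hybrid, reads that span a strain variant give each allele's level in the same cells. A test needed a mean of 10 variant-spanning reads per library and 8 TPM, and 2 members passed both limits, Gsto1 and Gstm1. Others had enough reads but not the level, among them Gstp2, Gsta4, Gstm2 and Sult2a8 in untreated hybrid Kupffer cells. In untreated hybrid Kupffer cells the BALB/cJ allele gave 38.7% to 41.8% of Gsto1 reads, with a mean of 39.85% ± 1.42 (SD, n = 4). It came from means of 840.5 BALB/cJ and 1272.75 C57BL/6J reads. The log2 difference of BALB/cJ minus C57BL/6J allele was -0.57 ± 0.04 (adjusted p = 0.00083). The share was 32.9% to 46.9% after LPS (mean 40.38%, n = 5, -0.52 ± 0.14, adjusted p = 0.0502). In NSG hosts it was 35.5% to 42.4% (mean 39.6%, n = 3, -0.60 ± 0.10, adjusted p = 0.0819). Both adjusted p were above 0.05. The share was 44.2% to 45.4% in KLA-treated BMDMs and 42.8% to 43.8% in PBS-treated BMDMs (-0.32 ± 0.03 over both, adjusted p = 0.00221). The BALB/cJ share of Gsto1 was thus under 50% in every hybrid library, as the parental BALB/cJ level was under that of C57BL/6J. Gstm1 gave a BALB/cJ share of 37.8% to 39.0% in NSG hosts (-0.66 ± 0.08, adjusted p = 0.0475, and 0.227 in DESeq2), but 47.7% to 56.8% in untreated cells, a range on both sides of 50%.

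None of these passed a log2 difference of 1. By edgeR the calls were 0 of 2 members in untreated Kupffer cells (3.75% of all genes called, 1 at an unadjusted p under 0.05), 0 of 2 after LPS (5.25%, 1), 0 of 2 in NSG hosts (2.85%, 2) and 0 of 2 in BMDMs (3.66%, 2), and DESeq2 called 0. Among the listed genes, the BALB/cJ allele of Gsr was lower in untreated, LPS and NSG Kupffer cells, and that of Glo1 was lower in untreated Kupffer cells and BMDMs. Ftl1, the ferritin light chain, had a higher BALB/cJ allele in untreated and LPS Kupffer cells and Cbr1 a lower one in NSG hosts. No cofactor gene or regulator was called, and no other conjugation enzyme passed the limits to be tested.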

How the data were processed

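Poly(A) RNA libraries were aligned by the authors with STAR. Each strain had its own genome made from mm10, and HOMER counted reads over exons. Deposited counts are raw reads per gene. In 12 columns the deposited expected counts came in steps of 0.5 and were rounded. Deposited TPM values, made by the authors with HOMER, sum to 0.501 to 0.596 times 1e6 per column, and parental and hybrid TPM tables were normalized separately. STAR's version and the strand setting are not given in the sources used here. Of the 20 deposited files, 8 were left out, as they repeat used columns or hold reads no comparison here needs.

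Counts were tested with edgeR 4.0.16 (R 4.3.3, TMM, robust quasi-likelihood), for genes that passed filterByExpr and a mean of 8 TPM in a compared group, with Benjamini-Hochberg adjustment over all genes tested. A call needed an adjusted p under 0.05 and an absolute log2 difference above 1. Alleles were compared on variant-spanning reads, paired within libraries. The methods give LPS and BMDM replicates as separate mice. For other groups the sources used here do not say, so p-values measure the spread between these libraries. Depth limits low genes. DESeq2 1.42.0 was an alternative. The scripts were tested on simulated data.

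Members and gene lists (NRF2 targets 25, glutathione supply and use 20, cofactor supply for UGT and SULT 11, other conjugation enzymes 13, regulators 20) were chosen with earlier results of these data known. Named genes were up to 8 called members per strain comparison, up to 6 per other comparison, the members of each subfamily with the highest mean TPM in each cell type, those nearest the limit of 1 TPM, and up to 4 called genes per list. Low members tested with filterByExpr alone, and members named short of a call, were chosen after their values were seen. Same-numbered libraries were not paired by the labels, and their deviations did not correlate throughout (r from -0.4 to 0.58).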

Additional observations from a re-analysis of the deposited data

Results flagged for a closer look

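In 6 of 73 groups of values 1 library stood apart from the rest by Dixon's criterion, which chance gives in about 1 group in 20. In the first BALB/cJ LSEC library Gsta3 had 45.3 TPM (the others 2.87 to 5.99 TPM), Sult2a8 48.7 TPM (2.82 to 7.16 TPM) and Ugt1a7c 30.1 TPM (3.16 to 4.57 TPM). Alb in that library stood at 5223 TPM and the median hepatocyte marker at 9.31% of its hepatocyte level, and their part in these values was not tested. Gstm2 had 74.5 TPM in the third A/J stellate library (the others 91.8 to 93.9 TPM) and 74.6 TPM in the third C57BL/6J LSEC library (64.4 to 65.1 TPM). Gsto1 had 46.1 TPM in the second untreated hybrid Kupffer library (53.4 to 54.5 TPM).

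The strain difference depended on the liver cell type for Gstm1 (1.57 on the log2 scale, adjusted p = 0.000764), Sult1a1 (1.3, adjusted p = 0.00528) and Gsto1 (-1.0, adjusted p = 0.000305), by the interaction test in edgeR. Hybrid Kupffer cells in NSG hosts, which entered no comparison with other groups, averaged 5.97 TPM of Sult3a1 and 2.86 TPM of Sult3a2, against 0 TPM of both in untreated hybrid Kupffer cells.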

How the results depend on the processing

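Of 341 alternative counts of called members, 303 stayed within 1.5 times the main count. With filterByExpr as the only filter, which tests more genes, 11 members were called between BMDM strains, 13 between stellate strains, 2 between LSEC strains and 19 for LPS. It gave 8 for hybrid LPS, 3 for KLA, 2 for hybrid KLA, 3 between NSG marrows and 6 for NSG against untreated. The share of all genes called with this filter is not given, so nothing is drawn from these counts. The Ugt1a genes among them read one locus. Gstt4 was among the KLA calls, and Sult3a2 and Sult4a1 were among the NSG calls. Each became a member only through groups where it was high, so these calls are no test. With the replicate block 10 were called between hepatocyte strains, against 6 in the main fit, and no other count moved beyond 1.5 times. The numbers are not known to pair the libraries. One fit over the 27 parental Kupffer libraries gave 2 calls between strains, 1 for the diet effect by strain and 1 for NSG against untreated. A minimum of 10 variant reads alone gave 1 in untreated hybrid alleles, and leaving out the 3 LSEC libraries of highest Alb gave 2 between LSEC strains. Leaving out single libraries gave 1 to 12 calls for the AMLN diet, 0 to 4 for that effect by strain, 4 to 13 between BMDM strains, 2 to 6 for the strain effect by cell type, 0 to 1 for hybrid LPS, 5 to 13 between stellate strains, 5 to 10 between Kupffer strains, 1 to 10 for LPS, 0 to 9 for LPS by strain, 1 to 2 between LSEC strains, 0 to 6 between NSG marrows and 1 to 3 for NSG against untreated. The strain effect by cell type, 3 in the main fit, was 6 without the first BALB/cJ LSEC library and 5 without the third BALB/cJ LSEC, the first A/J hepatocyte or the third C57BL/6J stellate library. The first untreated C57BL/6J library took the Kupffer strain count to 5, the first hybrid LPS library the hybrid LPS count to 1, and the first BALB/cJ LSEC library the LSEC count to 2.

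Library totals without TMM, chosen after seeing the data, gave 4 calls for LPS and 2 for hybrid LPS. Directions turned there for hybrid LPS in Gstk1 (-0.01), Gstm1 (-0.42), Gstp1 (-0.41), Ugt1a6b (-0.22) and Ugt1a7c (-0.30), for hybrid KLA in Gstt2 (-0.03), and for C57BL/6J KLA in Ugt1a1 (-0.03) and in Ugt1a10, Ugt1a2, Ugt1a5, Ugt1a6a, Ugt1a6b and Ugt1a9 (-0.02 each). The cause was not tested. Over 6022 alternatives of 188 member calls, 5895 kept the call, 127 lost it and 0 turned direction.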
